A study of Schizosaccharomyces pombe with 3 samples.

Results

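Genes for the conjugation of ubiquitin, SUMO and NEDD8 were followed here across their introns in fission yeast. They were picked by gene symbol alone, with a pattern that covers ubiquitin-conjugating enzymes, cullin ligase subunits, F-box proteins, deubiquitinating enzymes, the signalosome and the SUMO and NEDD8 modifiers. The pattern took 142 of the 5368 junctions in the table, in 47 of 2546 genes, and 125 of these introns in 45 genes had enough reads to be compared. All 3 libraries came from *Schizosaccharomyces pombe* cells that carry *prp4-as2*, a conditional allele whose kinase is blocked by the ATP analogue 1NM-PP1. RNA was taken from untreated cells (0 min) and from cells treated with the inhibitor for 30 min and for 60 min. There was 1 library per time, and none of the 3 is from a wild-type strain with inhibitor, so effects of the blocked kinase and of the compound itself cannot be told apart, and no test between cultures was possible. At each 5' SS the authors counted split reads (exon joined to exon, spliced RNA) and unsplit reads (exon running into the intron, unspliced RNA).

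Ubiquitin is a small protein that cells attach to other proteins, often to mark them for the proteasome. An E1 enzyme activates it, an E2 enzyme carries it, and an E3 ligase brings the E2 to a substrate. Deubiquitinating enzymes remove it again. SUMO and NEDD8 are related modifiers with E1 and E2 enzymes of their own, and NEDD8 is attached to cullins, the scaffolds of the largest family of E3 ligases, from which the COP9 signalosome takes it off.

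The Relative Splicing Efficiency Index (RSEI) is the log2 of the split reads divided by the unsplit reads, after adding 1 to both. A RSEI below 0 means more unspliced than spliced RNA at that junction, and the unspliced share is the percentage of unsplit reads among both kinds. To be kept, an intron needed more than 10 reads in all 3 libraries and mostly spliced RNA (RSEI above 0) before treatment. Of the 17 introns left out, 16 had too few reads, among them the only introns of *ubp1* and *ubp2*, and intron II of *pof4* was already below 0 in untreated cells. The libraries held 910440, 852562 and 743457 junction reads at 0, 30 and 60 min, of which the conjugation genes took 17595, 17414 and 16832. Unsplit reads made up 6.92%, 30.0% and 22.8% of all junction reads at these times, and 6.67%, 36.7% and 24.5% of those of the conjugation genes. The median kept junction of the conjugation genes had 69, 66 and 60 reads. Bracketed ranges are exact (Clopper-Pearson) 95% binomial limits. They cover counting error only, because amplified reads carried no molecular identifiers. Where a kind of read was not seen, the share given as "up to" is 3 divided by the number of reads. It is somewhat below the exact upper limit.

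The exon1/5' SS of introns on which the results turn are shown first, because the 5' end of snRNA U1 pairs with the last 3 bases of the exon and the first 6 of the intron. They are pairs of introns of *pmt3*, *ubc15* and *ubp10* with different RSEI at 30 min, and introns of the strongly retained genes *rbx1* and *ubp8*. The E2 intron with the highest RSEI at 30 min, *ubc4* II, is shown as well. Capitals mark the first 6 bases of the intron, preceded by 10 bases of exon and followed by 10 of intron, read from RefSeq assembly ASM294v3.
*pmt3* I (SUMO, chrII:2507023-2507116, plus strand): ugucggacagGUGUGUgcuacagcaa
*pmt3* II (SUMO, chrII:2507267-2507315, plus strand): accugcugagGUAAGUuuuaaacuuu
*ubc4* II (E2, chrII:715610-715980, plus strand): gccaccaaagGUAUGUaacuauuuag
*ubc15* II (E2, chrII:3523146-3523223, plus strand): guuuccucaaGUAUGUauuuauguuu
*ubc15* III (E2, chrII:3523254-3523329, plus strand): aaagaugaagGUAUAGuaaauacauu
*rbx1* II (E3, chrI:1575823-1575885, plus strand): aacuuguaauGUAAGUuuuaauucga
*rbx1* III (E3, chrI:1575977-1576020, plus strand): caacguuaugGUAGGGuauauuaaga
*ubp8* II (deubiquitinating, chrI:580984-581083, minus strand): cauaugaucgGUACGUuuaguugaaa
*ubp8* V (deubiquitinating, chrI:579790-579834, minus strand): auucucaagcGUAGGCucuuugcugu
*ubp10* I (deubiquitinating, chrII:764785-764832, plus strand): uuuggacacuGUAAGAgugauuuugc
*ubp10* II (deubiquitinating, chrII:765170-765270, plus strand): uauguuccagGUAAGUaucgugggga

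In the presence of inhibitor, splicing was lower in nearly all introns of the conjugation genes, and 47 of the 125 held more unspliced than spliced RNA at 30 min. The RSEI at 30 min was below its untreated value in 119 of 125 introns, against 97.4% of all 4171 kept introns. A RSEI below 0 in 47 introns is a share of 37.6% (29.1 to 46.7), and the same share of all kept introns, 37.6%, was below 0. The median RSEI was 3.52, 0.50 and 1.47 at 0, 30 and 60 min, and over all kept introns 3.58, 0.66 and 1.57. A fall of 2 or more at 30 min was found in 94 introns (75.2%; all kept introns, 71.1%), and a rise of 2 or more in none (all kept introns, 0.048%). In 84 introns (67.2%) the unspliced share was higher at 30 min with an interval apart from that of untreated cells, against 70.3% of all kept introns. Thus the share below 0 was that of the background, while single introns ranged from a RSEI of -4.86 in *ubp8* V to 5.14 in *ftp105* IV. The sign was not settled by depth in 34 introns, whose interval at 30 min included 50%. Another 34 had intervals wholly above 50% (27.2%; all kept introns, 25.4%), and 57 wholly below. Introns at the border were *csn2* III, *pof9* I and *ubc15* IV, each with as many split as unsplit reads, *csn5* II with 19 unsplit and 18 split reads, and *ubc11* I with 27 and 28.

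The shares of E2, E3 and deubiquitinating introns with a RSEI below 0 at 30 min had overlapping intervals, and the order of the roles depended on how introns were summarised. A RSEI below 0 was found in 10 of 36 introns of E2 genes (27.8%, 14.2 to 45.2), in 9 of 26 introns of E3 genes (34.6%, 17.2 to 55.7) and in 9 of 17 introns of deubiquitinating enzymes (52.9%, 27.8 to 77.0). Each of these intervals included the 37.6% of all kept introns. The median RSEI was 4.01, 0.57 and 1.78 at 0, 30 and 60 min for E2 introns, 3.30, 0.53 and 1.31 for E3 introns, and 2.70, -0.72 and 0.89 for introns of deubiquitinating enzymes. The order of these medians at 30 min was that of untreated cells, but it turned round under other summaries. With the reads of each gene summed the median at 30 min was 0.25 in E2 genes, 0.0 in E3 genes and 0.55 in deubiquitinating enzymes (all genes, 0.57). With at least 50 reads in each library it was 0.57, -0.040 and 0.59, over 28, 8 and 8 introns (all introns with as many reads, 1.19). The median change of the RSEI at 30 min ran the other way, with -3.62 in E2 genes, -3.17 in E3 genes and -2.88 in deubiquitinating enzymes, against -2.92 over all kept introns. At 60 min 6 E2 introns (16.7%), 4 E3 introns (15.4%) and 7 introns of deubiquitinating enzymes (41.2%) were still below 0, against 24.2% of all kept introns. All 4 kept introns of *ubp8* were below 0 at 30 min, and without this gene the count for deubiquitinating enzymes was 5 of 13 (38.5%, 13.9 to 68.4) with a median RSEI of 1.75. Read numbers differed between the roles as well. The median junction at 30 min had 110.5 reads in E2 genes, 48 in E3 genes and 56 in deubiquitinating enzymes. Among introns with at least 50 reads in each library 9 of 28, 4 of 8 and 4 of 8 were below 0, against 29.9% of all introns with as many reads. The part of read number in the difference was not tested further.

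**Figure D1:**
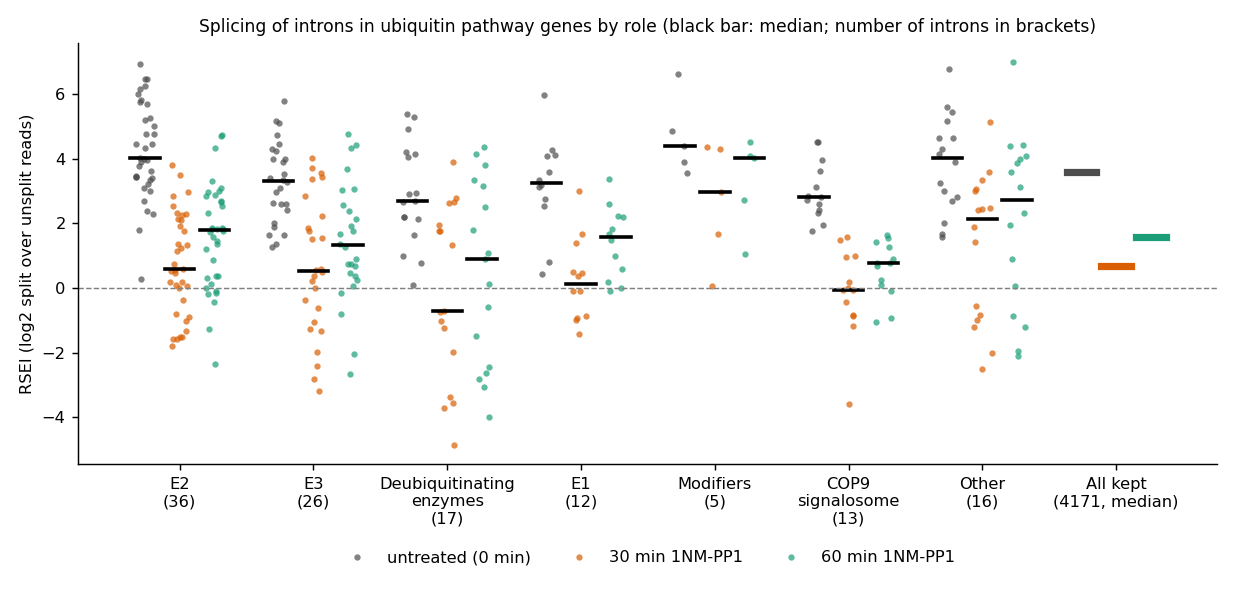
RSEI (vertical axis, log2 scale) of each kept intron by role of the gene, with untreated cells in grey, 30 min in orange and 60 min in green. Black bars are medians, and the coloured bars on the right are the medians of all 4171 kept introns. The median of the deubiquitinating enzymes is below 0 at 30 min (-0.72), and that of the 5 modifier introns is 2.95, against 4.40 in untreated cells.

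The genes of the modifiers themselves kept most of their RNA spliced. None of the 5 kept introns of *pmt3* (SPBC365.06), which encodes SUMO, and *ned8* (SPBC12D12.08c) had a RSEI below 0 at 30 min. The interval of this share, 0 to 52.2%, includes the 37.6% of all kept introns. Intron I of *pmt3* had 10 unsplit and 318 split reads in untreated cells, 90 and 94 at 30 min, and 61 and 126 at 60 min. Its unspliced share was 3.05% (1.47 to 5.54), 48.9% (41.5 to 56.4) and 32.6% (26 to 39.8). Intron II of the same gene did not move beyond its counting error, with 4% (1.62 to 8.07), 4.12% (1.67 to 8.30) and 4.92% (1.83 to 10.4). Both have a GU with G before it, but intron I begins GUGUGU and intron II GUAAGU. In *ned8*, intron I had 5 unsplit and 70 split reads in untreated cells, 2 and 58 at 30 min, and 2 and 68 at 60 min. Intron II had 0 unsplit among 97 reads in untreated cells, which allows an unspliced share of up to 3.09%, and 10.6% (5.22 to 18.7) at 30 min. Intron III had 2 unsplit and 44 split reads, 13 and 43, and 6 and 45 at the 3 times, and its intervals at 0 and 30 min overlapped.

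Of the E1 genes, *rad31* (SPAC4C5.04) and *fub2* (SPBC16H5.03c; *uba2* in RefSeq) encode the subunits of the SUMO-activating enzyme. At 30 min 6 of the 12 kept introns of E1 genes were below 0 (50%, 21.1 to 78.9; all kept introns, 37.6%), the median RSEI was 0.13, and the interval of the unspliced share included 50% in 7. The lowest RSEI was that of intron II of *fub2* at -1.43, with 1 unsplit and 17 split reads in untreated cells, then 26 and 9 at 30 min, and 9 and 9 at 60 min. Intron III of *fub2* had 0 unsplit among 16 reads in untreated cells, which allows up to 18.8%, and 1 unsplit among 16 reads at 30 min. Intron IV of *rad31* was poorly spliced before, with 14 unsplit and 19 split reads, and had 15 and 7 at 30 min. Introns I and II of *rad31* had more split than unsplit reads at 30 min, with unspliced shares of 41.9% (31.8 to 52.6) and 27% (17.4 to 38.6), against 4.49% (1.24 to 11.1) and 0.800% (0.0203 to 4.38) in untreated cells. At 60 min 1 of the 12 introns was below 0.

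All 36 kept introns of the 12 genes for E2 enzymes and the E2 variant had a lower RSEI at 30 min than in untreated cells (all kept introns, 97.4%). In 30 of them (83.3%; all kept introns, 70.3%) the unspliced share was higher and the intervals did not overlap. The exceptions in the intervals were *mms2* III, *ubc1* II and V, *ubc12* I and IV and *ubc6* I. The enzyme of *ubc4* (SPBC119.02) carries ubiquitin for many short-lived proteins. By summed reads, this gene had the lowest unspliced share of the E2 genes at 30 and 60 min, at 11.2% and 8.65%. Its intron II, the most deeply read junction of all conjugation genes, had 55 unsplit and 2999 split reads in untreated cells, 238 and 3332 at 30 min, and 184 and 3715 at 60 min. The unspliced share of this intron was 1.80% (1.36 to 2.34), 6.67% (5.87 to 7.53) and 4.72% (4.07 to 5.43), a small change that exceeded its counting error. Intron I of *ubc4* went further, with 2.56% (1.52 to 4.01), 27.9% (25.1 to 30.8) and 25% (22.3 to 27.9).

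Mostly unspliced at 30 min were introns of *ubc1*, *ubc7*, *ubc11*, *ubc12*, *ubc13*, *ubc15* and *rhp6*, while *ubc4*, *ubc6*, *ubc14*, *ubc16* and *mms2* had none below 0. In *rhp6* (SPAC18B11.07c), the counterpart of budding yeast *RAD6*, which acts in DNA damage tolerance and on histone H2B, introns III and IV were at 74.5% (67.5 to 80.6) and 71.9% (66.0 to 77.2), against 7.89% and 7.23% in untreated cells. Introns I and II of the same gene were at 40.5% (33.4 to 48.0) and 28.5% (22.2 to 35.4). Ubc13 works with the E2 variant Mms2 in the same damage tolerance pathway. Introns I and III of *ubc13* (SPAC11E3.04c) had an unspliced share of 67.1% (62.7 to 71.3) and 65.1% (60.2 to 69.7) at 30 min, whereas intron II had 16.3% (11.4 to 22.4). In *mms2* (SPCC338.05c) the 4 introns were at 30.9%, 46.9%, 15.7% and 11.7%, all below 50%. In untreated cells the introns of both genes lay between 0.568% and 5.93%.

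Ubc11 is the E2 of the anaphase-promoting complex, the ligase that destroys cyclins at the end of mitosis. Intron II of *ubc11* (SPCC1259.15c) had 5 unsplit and 118 split reads in untreated cells, 76 and 25 at 30 min, and 42 and 54 at 60 min, one of the 5 largest falls of all conjugation genes at -5.88. Its other introns were at 49.1%, 29.2% and 40.8% at 30 min. In *ubc15* (SPBC1105.09), intron III had 66 unsplit and 325 split reads, 118 and 39, and 93 and 115 at the 3 times, while intron II had 66 and 564, 50 and 76, and 34 and 252. Intron IV of *ubc15* had 1 unsplit and 103 split reads in untreated cells and 8 of each at 30 min, and its intron I reached 16.4% (8.79 to 27.0). The single intron of *ubc16* (SPBC1198.09) had 0 unsplit among 86 reads in untreated cells, which allows up to 3.49%, and 17 among 41 at 30 min, a share of 41.5% (26.3 to 57.9). As no unsplit read was seen before treatment, the size of this change (-5.97) rests in part on the added 1.

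Ubc6 and Ubc7 serve the degradation of proteins at the endoplasmic reticulum. Intron I of *ubc7* (SPBP16F5.04) was at 56.5% (48.7 to 64.2) and intron II at 48.6% (36.6 to 60.7) at 30 min, and both were close to these values at 60 min (51.9% and 43.5%). Intron I of *ubc6* (SPAC10F6.05c) was at 10% (3.76 to 20.5) at 30 min, against 7.02% (1.95 to 17) in untreated cells, and intron II was at 37.6%, against 22.2%. Introns I and II of *ubc14* (SPAC1250.03) were at 18.9% and 46.7% at 30 min, against 4.13% and 8.13%. Ubc12 is the E2 for NEDD8. Intron III of *ubc12* (SPCC777.10c) was at 63.9% (51.7 to 74.9) at 30 min, against 13.8% (3.89 to 31.7), and introns I and IV had 2 unsplit among 14 reads and 4 among 32.

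**Figure D2:**
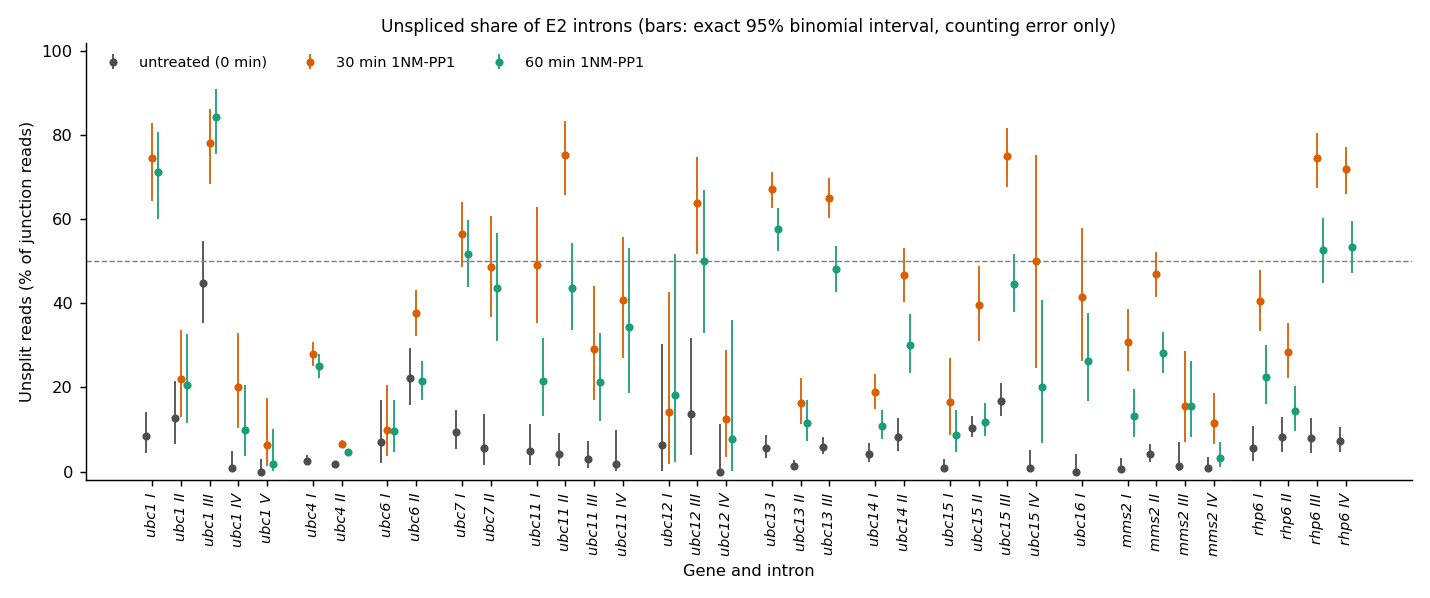
Unspliced share (unsplit reads as a percentage of the junction reads, vertical axis) of the 36 kept introns of E2 genes, in 5' to 3' order within each gene. Points are single libraries, bars are exact 95% binomial intervals, and the dashed line is at 50%. Introns of one gene lie far apart at 30 min, as in *rhp6*, where introns III and IV are above 70% and intron II is at 28.5%.

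Among the E3 genes, the lowest RSEI at 30 min was that of an intron of *rbx1*, a core subunit gene of cullin ligases. Whether the core subunits as a group were lower than the other E3 genes depended on the summary. Rbx1 is the RING subunit that binds the E2, Skp1 links the cullin Cul1 to F-box proteins, and Cul3 works with BTB proteins. A RSEI below 0 at 30 min was found in 4 of 14 core introns, 3 of 8 introns of F-box genes and 2 of 4 introns of *pli1* and *ufd2* (all kept introns, 37.6%). With the reads of the kept introns pooled, the unspliced share at 30 min was 58.1%, 45.9% and 37.5% in these groups (all kept introns, 28.4%). The median share by intron was 39.8%, 45.4% and 38.9% (all kept introns, 38.4%). Pooling weights introns by their reads, and in the core group *skp1* I and *rbx1* II had 462 and 190 unsplit reads at 30 min. Intron II of *rbx1* (SPAC23H4.18c) had 19 unsplit and 72 split reads in untreated cells, 190 and 20 at 30 min, and 148 and 35 at 60 min. Its unspliced share was 20.9% (13.1 to 30.7), 90.5% (85.7 to 94.1) and 80.9% (74.4 to 86.3). Intron III of *rbx1* had 7 and 48, 31 and 5, and 20 and 21 reads, whereas intron I stood at 5.86%, 22.4% and 22.6%. The first intron of *skp1* (SPBC409.05) had 78 unsplit and 203 split reads, 462 and 117, and 241 and 138, with a share of 27.8% (22.6 to 33.4), 79.8% (76.3 to 83.0) and 63.6% (58.5 to 68.4). Its introns II and III were at 40.4% and 16.3% at 30 min.

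The 2 cullin genes differed from each other. In *cul1* (SPAC17G6.12), intron III had 1 unsplit and 38 split reads in untreated cells, 39 and 15 at 30 min, and 10 and 12 at 60 min. None of the 5 kept introns of *cul3* (SPAC24H6.03) was below 0. Its intron III had 4 unsplit and 29 split reads in untreated cells and 3 and 64 at 30 min, the largest rise of RSEI among the conjugation genes (1.44), although the intervals of the unspliced share, 4.48% (0.933 to 12.5) at 30 min and 12.1% (3.4 to 28.2) in untreated cells, overlapped. Intron VI of *cul3* had 2 unsplit and 31 split reads at 30 min, against 0 among 33 in untreated cells, which allows up to 9.09%.

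F-box proteins choose the substrates of Skp1 and Cul1 ligases. Intron II of *pof2* (SPBC25B2.11) had 4 unsplit and 11 split reads, 20 and 2, and 18 and 2 at the 3 times, and intron I had 14 and 90, 34 and 16, and 30 and 27. At the other end, intron I of *pof11* (SPAC29E6.01) had 0 unsplit among 12 reads at 30 min, which allows up to 25%, and intron I of *pof4* (SPBC29A3.08), annotated as a putative elongin-A, had 2 unsplit among 30 reads in untreated cells and 2 among 36 at 30 min. In *pli1* (SPAC1687.05), the gene for a SUMO ligase, the single intron had 8 unsplit and 47 split reads, 35 and 14, and 16 and 21. In *ufd2* (SPAC20H4.10), whose product lengthens ubiquitin chains, intron III had 4 and 19, 29 and 22, and 15 and 40 reads. Intron II of *ufd2* had 2 and 55, 17 and 64, and 2 and 63, and intron I had 3 unsplit among 43 reads at 30 min.

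Among the 8 deubiquitinating enzyme genes with kept introns, *ubp8* and *ubp5* had all kept introns below 0 at 30 min, *ubp4*, *ubp9* and *ubp10* had 1 such intron beside others at or above 0, and *ubp3*, *ubp14* and *ubp15* had none. In *ubp8* (SPAC13A11.04c), whose product removes ubiquitin from histone H2B within the SAGA complex, RNA was nearly all unspliced at both times. Its intron I had 22 unsplit and 45 split reads in untreated cells, 240 and 22 at 30 min, and 112 and 15 at 60 min. Intron II had 6 and 51, 94 and 7, and 49 and 7, the largest fall of the conjugation genes at -6.46. At 30 min no split read was seen among 12 reads of intron IV and 28 reads of intron V, which allows spliced shares of up to 25% and 10.7%. Splicing of this gene was incomplete before inhibitor was added, with unspliced shares of 32.8% (21.8 to 45.4), 10.5% (3.96 to 21.5), 36.1% (20.8 to 53.8) and 48.4% (30.2 to 66.9) in introns I, II, IV and V. Intron III, not kept for too few reads, had 7 unsplit and 11 split reads, 14 and 3, and 8 and 2.

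Other deubiquitinating enzymes with mostly unspliced introns were *ubp5*, *ubp9*, *ubp10* and *ubp4*. Both introns of *ubp5* (SPCC188.08c) were mostly unspliced at 30 min, with 62.9% (44.9 to 78.5) and 63.2% (50.7 to 74.6) unspliced, against 2.70% and 10.4% in untreated cells. At 60 min intron I was at 60.5% (43.4 to 76.0) and intron II at 31.7% (20.3 to 45.0). In *ubp9* (SPBC1703.12), intron I had 10 unsplit and 47 split reads, 54 and 13, and 41 and 14, while introns II and III were at 21.2% and 25% at 30 min. In *ubp10* (SPBC577.07), intron I was at 67.9% (54.0 to 79.7) at 30 min, against 15.4% (4.36 to 34.9), and intron II at 11.8% (3.30 to 27.5), against 11.1% (2.35 to 29.2). Intron III of *ubp4* (SPBC18H10.08c) was at 22.9%, 71.4% and 92.3% (74.9 to 99.1) at the 3 times, and intron II stood at 17.2%, 20% and 14.3%. Spliced at all times were *ubp15*, *ubp3* and *ubp14*. Introns I and II of *ubp15* (SPBC713.02c) had 16 unsplit and 253 split reads and 28 and 198 at 30 min, against 9 and 303 and 4 and 207 in untreated cells. The intron of *ubp3* (SPBP8B7.21) had 57 and 362 at 30 min, and that of *ubp14* (SPBC6B1.06c) 12 and 43.

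In the COP9 signalosome genes 7 of 13 introns were below 0 at 30 min (53.8%, 25.1 to 80.8), a range that includes the 37.6% of all kept introns. Csn5 is the protease subunit that cleaves NEDD8 from cullins. Intron I of *csn5* (SPAC1687.13c) had 17 unsplit and 60 split reads in untreated cells, 145 and 11 at 30 min, and 88 and 42 at 60 min, with an unspliced share of 22.1% (13.4 to 33), 92.9% (87.7 to 96.4) and 67.7% (58.9 to 75.6). Both kept introns of *csn1* (SPBC215.03c) and introns I and II of *csn2* (SPAPB17E12.04c) were below 0, and intron I of *csn2* had 20 and 136, 139 and 61, and 89 and 84 reads. In *csn3* (SPAC222.16c), introns I and II had 24.2% (14.5 to 36.4) and 25% (12.1 to 42.2) at 30 min, against 15.0% (5.71 to 29.8) and 18.5% (6.30 to 38.1), with overlapping intervals.

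Introns of one gene often fell on both sides of 0. Of 35 genes with at least 2 kept introns, 22 (62.9%) had introns below 0 beside others at or above it at 30 min. Over all kept introns it was 47.4% of 1098 genes. The genes were not matched for their number of kept introns, on which this share depends. All kept introns were below 0 in 5 of the 35 genes (*pof2*, *ubp5*, *ubp8*, *csn1* and *csn5*) and none in 8. Over all kept introns these counts were 180 and 397 of the 1098 genes. The widest range was found in *ftp105* (SPAC17A5.16), which encodes a partner of Ubp5. Its introns I, IV, V and VI had 7.41%, 2.31%, 15.1% and 13.0% unspliced at 30 min, and introns II, III and VII 70.3% (59.8 to 79.5), 80.4% (74.8 to 85.3) and 66.7% (34.9 to 90.1). In untreated cells these 7 introns were at 7.14%, 5.26%, 23.2%, 0 of 109 reads (up to 2.75%), 2.22%, 0 of 42 reads (up to 7.14%) and 22.2%, from I to VII. At 60 min introns II, III and VII were at 65.6%, 79.8% and 85.7%, and the others at or below 8.11%. Introns III and IV of *ftp105* are read from the same transcript and differed by 7.16 in RSEI at 30 min.

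In *ufd1* (SPBC16A3.09c), encoding a partner of the segregase Cdc48, intron III had 9 unsplit and 39 split reads, 67 and 11, and 38 and 16, and intron IV was at 59.6% (49.3 to 69.3) at 30 min, against 12.5%. Intron II of *ufd1* had 2 unsplit among 25 reads in untreated cells and 0 among 11 at 30 min, which allows up to 27.3%. In *ubc1* (SPBC2D10.20), introns I and III were at 74.5% (64.4 to 82.9) and 78.3% (68.4 to 86.2) at 30 min and at 71.2% and 84.4% at 60 min, and introns II, IV and V at 22.1%, 20% and 6.38% at 30 min. Intron III of *ubc1* had been at 45.0% (35.4 to 54.8) in untreated cells, and intron I at 8.39% (4.41 to 14.2). The symbol *ubp13* (SPAC22G7.04) belongs to Pan2, a poly(A) ribonuclease subunit outside ubiquitin conjugation, and 1 of its 6 introns was below 0.

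**Figure D3:**
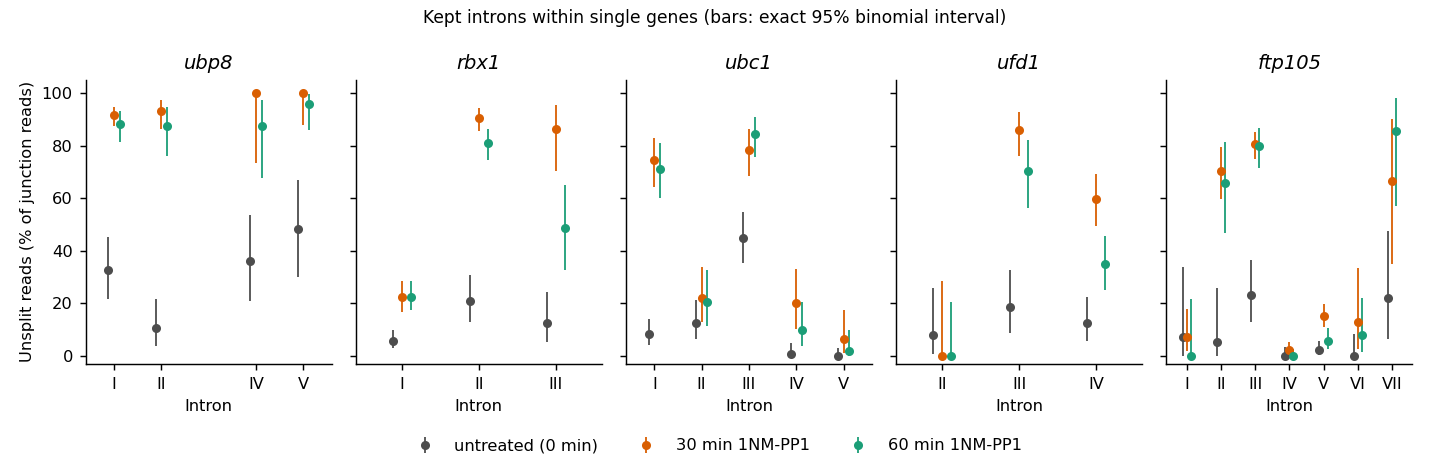
Unspliced share (vertical axis, percent of junction reads) by intron number for 5 genes, with exact 95% binomial intervals. In *ubp8* the 4 kept introns are all above 90% at 30 min, while in *rbx1*, *ubc1*, *ufd1* and *ftp105* introns below 25% stand beside introns above 50%.

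Unspliced RNA was less frequent at 60 than at 30 min in most introns. The RSEI was higher at 60 than at 30 min in 109 of the 125 introns and lower in 16. It was higher by 1 or more in 61 introns (48.8%; all kept introns, 37.3%) and lower by 1 or more in 3 (2.40%; all kept introns, 1.89%). In 30 introns (24.0%; all kept introns, 17.6%) the unspliced share was lower at 60 min with intervals apart from those at 30 min. This held for 15 of 36 E2 introns (41.7%), 4 of 26 E3 introns (15.4%) and 2 of 17 introns of deubiquitinating enzymes (11.8%). E2 junctions had the most reads of these roles, and the part of read number in this count was not tested. The largest rises were found in *ufd2* II (RSEI 1.85 at 30 min and 4.42 at 60 min), *csn5* I (-3.60 and -1.05) and *rbx1* III (-2.42 and 0.07). The largest falls were those of *ubp4* III (-1.24 and -3.06), *pof11* I (3.70 and 2.12) and *ftp105* VII (-0.85 and -2.12), each with 12 to 35 reads per library and overlapping intervals. A RSEI below 0 remained at 60 min in 25 introns (20%; all kept introns, 24.2%), all of them below 0 at 30 min as well. With the reads of each gene summed, 5 of 45 genes (11.1%; all genes, 23.0%) stayed below 0 at 60 min, namely *ubp8*, *ubp9*, *pof2*, *skp1* and *csn5*. At that time the unspliced share was 89.1% (84.7 to 92.6) over all junctions of *ubp8*, 62.3% (50.6 to 73.1) in *pof2*, 57.6% (49.8 to 65.0) in *csn5*, 53.7% (49.3 to 58.0) in *skp1* and 52.0% (41.8 to 62.0) in *ubp9*. None of the 12 E2 genes was below 0 at 60 min by this sum, and 5 of them were at 30 min (all genes, 23.0% and 37.7%).

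The junction reads of a gene, split and unsplit together and taken relative to all junction reads of the library, changed in few of the 41 genes with at least 50 reads in untreated cells. A change in this sum cannot be assigned to transcription, stability or counting of one read at several junctions. It was at least 2-fold higher at 30 min in 2 genes (4.88%), against 4.25% of 1811 genes, and at least 2-fold lower in 1 (2.44%), against 6.96%. The exception downward was *ubc15*, with 1355, 372 and 658 junction reads at 0, 30 and 60 min, a fold of 0.293 at 30 min and 0.595 at 60 min. Its 4 introns all lost split reads, and its split reads at 30 min, with 1 added to each sum, were at 0.162 of the untreated level. After it came *ubc16* (0.509; 86, 41 and 76 reads) and *ubp13* (0.535; 915, 458 and 734 reads), both back near 1 at 60 min with 1.08 and 0.982. Higher sums were found in *ftp105* (2.20; 438, 903 and 507 reads), *ubp8* (2.15; 209, 420 and 266 reads) and *csn5* (1.98; 104, 193 and 172 reads).

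The rises differed in kind. In *ubp8* and *csn5* they consisted of unsplit reads, since split reads of *ubp8* were at 0.240 of their untreated level and those of *csn5* at 0.373, while in *ftp105* split reads rose 1.51-fold as well. Split reads alone were at least 2-fold lower at 30 min in 15 of the 41 genes (36.6%), against 32.7% of all genes. At 60 min this held for 5 genes (12.2%; all genes, 22.7%), which were *ubp8*, *ubc1*, *ubc13*, *pof2* and *cul1*. At 60 min the sum was at least 2-fold higher in *ubc6* (2.42) and *csn5* (2.03), 4.88% of the 41 genes against 2.48% of all, and 2-fold lower in none of the 41, against 6.41%. In *ubc6* both kinds of read were higher at 60 min, with 176, 258 and 346 split and 39, 129 and 79 unsplit reads at 0, 30 and 60 min. Its unspliced share was 18.1% (13.2 to 24.0), 33.3% (28.7 to 38.3) and 18.6% (15.0 to 22.6) at these times.

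**Figure D4:**
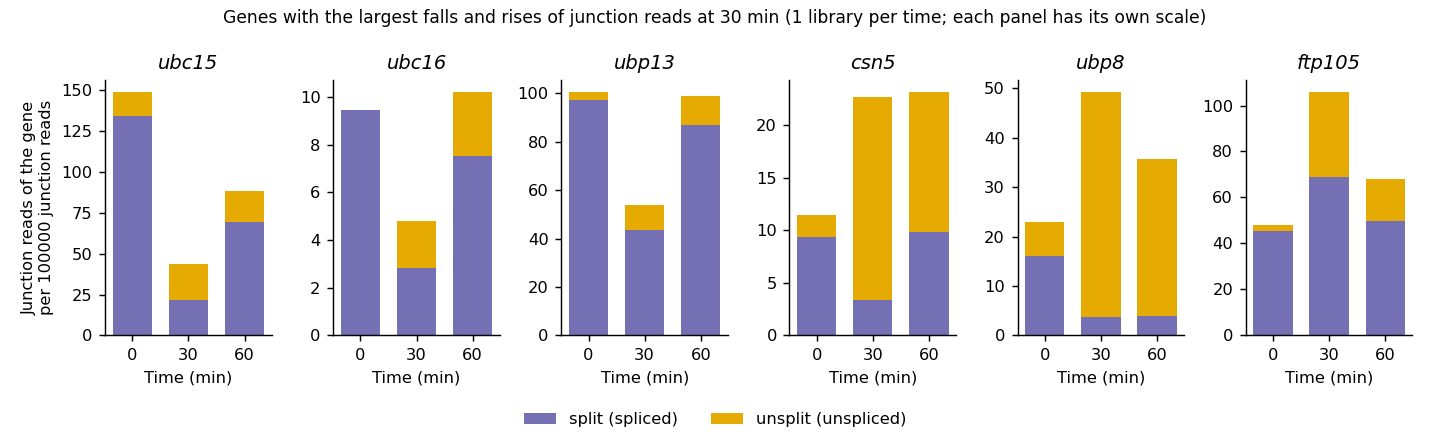
Junction reads of a gene per 100000 junction reads of the library (vertical axis, own scale in each panel) at 0, 30 and 60 min, with split reads in purple and unsplit reads in yellow, 1 library per time. The bars of *ubp8* and *csn5* grow by unsplit reads, and those of *ubc15* shrink to 0.293 of the untreated sum at 30 min.

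Counted as bases identical to cagGUAAGU, the pairing of the exon1/5' SS with snRNA U1 was weaker in the retained introns of these genes, with wide overlap. Wobble pairs such as G-U are not in this count. Of the 9 bases from -3 to +6, 5.85 ± 0.93 matched in the 47 introns with a RSEI below 0 at 30 min (mean ± SD over introns). In the 77 others with an annotated 5' SS the number was 6.29 ± 0.87, and over all kept introns the means were 5.88 and 6.41. A RSEI below 0 was found in 3 of 5 introns with 4 pairs, 13 of 23 with 5, 21 of 54 with 6, 8 of 37 with 7, 2 of 4 with 8 and 0 of 1 with 9. Among all kept introns the shares with 4, 5, 6, 7, 8 and 9 pairs were 73.6%, 57.9%, 37.6%, 26.5%, 17.6% and 16.7%. Without G at +5 it was below 0 in 8 of 12 introns, against 39 of 112 with it (all kept introns, 58.7% and 35.1%). Without U at +6 it was 22 of 48 (45.8%), against 25 of 76 (32.9%) with it, close to all kept introns (46.6% and 33.1%). At -1, the last base of exon 1, the difference seen over all kept introns (45.9% without G, 31.6% with G) was smaller in the conjugation genes, at 23 of 57 without G (40.4%, 27.6 to 54.2) and 24 of 67 with it (35.8%, 24.5 to 48.5).

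The sequences printed above include introns on either side of this difference. In *ubp10*, intron II has 9 pairs and intron I has 5, and their RSEI at 30 min was 2.63 and -1.04. In *ubc15*, intron II has 7 pairs and intron III, which begins GUAUAG, has 5, with 0.59 and -1.57. Intron V of *ubp8*, which begins GUAGGC, has 4 pairs and the lowest RSEI of the conjugation genes, -4.86. Among all kept introns GUAGGC occurs 7 times, and all 7 were below 0. In contrast, intron II of *rbx1*, which begins GUAAGU, has 7 pairs and a RSEI of -3.19. Intron II of *ubp8* has 6 pairs and a RSEI of -3.57, and *pmt3* I, with 7 pairs, was at 0.06. By role, E2 introns had the lowest mean number of pairs, 5.86 ± 0.83 (n = 36), against 6.40 ± 0.58 (n = 25) in E3 introns and 6.12 ± 1.32 (n = 17) in deubiquitinating enzymes, which is not the order of the RSEI at 30 min.

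**Figure D5:**
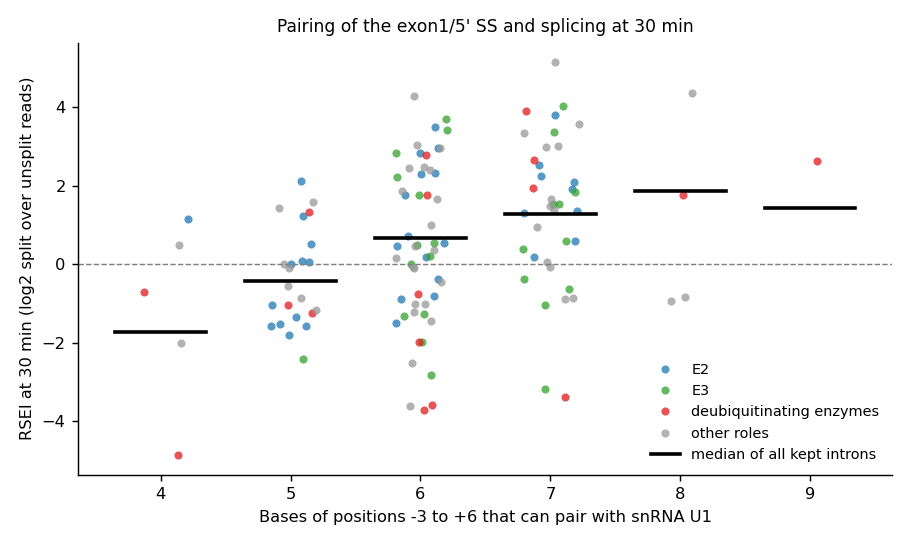
RSEI at 30 min (vertical axis) against U1 base pairs, counted as identity to cagGUAAGU over positions -3 to +6 (horizontal axis, points spread sideways for visibility), coloured by role. Black bars are the medians of all kept introns with that number, and the conjugation genes spread over more than 4 units of RSEI at 6 and at 7 pairs.

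Other features differed little. The median length was 52 nt in the introns below 0 and 55 nt in the others (all kept introns, 54 and 58 nt). The branch pentamer nearest the 3' SS was CUAAC in 15 of the 47 introns (31.9%) and in 31 of the 77 others (40.3%), against 29.4% and 35.7% over all kept introns. Each of these 124 introns interrupts the coding sequence, and an intron left in the message would bring a stop codon in frame in 43 of the 47 (91.5%) and 63 of the 77 (81.8%), against 86.9% and 87.0% of the coding introns over all kept introns.

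Further genes of ubiquitin and related pathways, which the symbol pattern does not take, were drawn from a list of 131 symbols. Of these 50 had a junction and 44 a kept intron, and 35 of their 85 kept introns (41.2%) were below 0 at 30 min and 21 at 60 min (24.7%), close to the 37.6% and 24.2% of all kept introns. By group, 13 of 18 introns were below 0 at 30 min in genes for autophagy conjugation and the modifiers Urm1 and Hub1, 7 of 8 in genes for further adaptors and receptors, 5 of 7 in further deubiquitinating genes, 6 of 17 in the anaphase-promoting complex, 3 of 14 in RING and HECT ligases, 1 of 12 in SUMO and SUMO-targeted ligases and 0 of 9 in Cdc48 partners and shuttles. The lowest RSEI values were those of *sgf11* I (19 unsplit and 61 split reads in untreated cells, 94 and 5 at 30 min, 64 and 11 at 60 min) and *atg7* V (4 and 20, 12 and 0, 12 and 0). The highest were those of *hus5* II, in the gene for the SUMO E2 (3 and 212, 1 and 365, 5 and 293), and *rhp23* III, in the gene for a proteasome shuttle (2 and 261, 5 and 231, 5 and 252).

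Sgf11 anchors Ubp8 in the deubiquitinating module of SAGA together with Sus1 and Sgf73, a group put together here after its values were seen. The intron of *sus1* had 13 unsplit and 120 split reads in untreated cells, 57 and 19 at 30 min, and 33 and 23 at 60 min. That of *sgf73* had 0 unsplit among 62 reads in untreated cells, 10 and 53 at 30 min, and 7 and 42 at 60 min. Of the 7 kept introns of the 4 module genes, 6 were below 0 at both times, 4 of them in *ubp8* and 1 each in *sgf11* and *sus1*. The shares over all kept introns were 37.6% and 24.2%, and nothing is read from the count, since the group was chosen on these values.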

How the data were processed

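Directional RNA-seq libraries of oligo-dT-selected RNA were made, 1 per time and 3 in all. The authors aligned the reads with TopHat, and the submitters' processing notes also name SAMtools. Unsplit and split read counts, taken over 3 bases at each 5' SS, were deposited without normalization. The deposited log2 values are the RSEI. Recomputed from the counts with 1 added, they matched in all 5374 lines. Of these lines, 6 repeat a junction and were dropped.

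The members and lists were chosen with earlier results of these data known. Roles were assigned by hand from the symbols and the RefSeq annotation. Junctions were matched by gene and position to annotated introns of RefSeq ASM294v3 (139 of 142), and each 5' SS was scored for identity to cagGUAAGU, the complement of the 5' end of snRNA U1. The branch pentamer (pyrimidine, U, any base, A, pyrimidine) was the one nearest the 3' SS within 40 nt. Named introns are, by role, the 2 lowest and 2 highest at 30 min, the 5 largest and 5 smallest falls, all introns in the 3 genes whose values spread most, the 3 largest changes of gene reads and from 30 to 60 min each way, and all E2 introns. Others named, among them introns of *pmt3*, *ned8*, *rad31*, *rbx1*, *skp1*, *ubp4*, *ubp5*, *ubp9* and *ubp10*, were chosen after their values were seen. RefSeq holds 81 genes whose symbols fit the pattern, and the 33 without a junction in the table, such as the ubiquitin genes, are not analysed here. The introns of 1 gene are counted in the totals but not reported here.

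With 1 library per time no p-value was computed. Alternatives changed the read minimum, the pseudocount, the untreated requirement, the interval, the time and the summary per gene. No other columns of per-sample values were present. The procedure was tested on simulated data. Python 3.11.15 was used with numpy 2.4.6, pandas 2.3.3, scipy 1.17.1 and matplotlib 3.10.9.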

Additional observations from a re-analysis of the deposited data

How the results depend on the processing

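The limits of these data are the single library per time and the small number of reads at many junctions. No paired analysis was possible because each time has 1 library, and for the same reason no library could be left out. Under the alternatives, 35 values were classed as the same, 16 as moved and 9 as changed in sign. A count was the same within 1.5 times, a median within the interval of the main median, and the difference in pairs within the SD over introns. Counts were compared as such, although some alternatives also change the number of introns or genes tested, so a moved count need not be a moved share. Requiring at least 50 reads in each library left 65 introns, of which 25 were below 0 at 30 min (38.5%; all introns with as many reads, 29.9%) and 16 at 60 min (24.6%; all, 18.3%). Of these 65, 53 fell by 2 or more (81.5%; all, 70.0%), 54 had non-overlapping intervals (83.1%; all, 78.2%) and 37 were higher by 1 or more at 60 than at 30 min (56.9%; all, 35.2%). Among all 125 kept introns of the conjugation genes, a rise of 2 or more at that step was seen in 4 (3.2%; all kept introns, 5.32%). With the reads of each gene summed, 20 of 45 genes were below 0 at 30 min (44.4%; all genes, 37.7%) and 5 at 60 min (11.1%; all genes, 23.0%), while by intron 25 of 125 were below 0 at 60 min. Of the 85 introns of other pathway genes, 11 of 38 with at least 50 reads were below 0 (28.9%; all, 29.9%), 19 had an interval above 50%, and 20 of their genes were below 0 by summed reads.

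The median RSEI at 30 min of the deubiquitinating enzymes (-0.72) became 0.55 by gene with summed reads, 0.59 with at least 50 reads and 1.75 without *ubp8*, a choice made after seeing the data, and was 0.89 at 60 min. That of E1 genes (0.13) became -0.38 by summed reads and -1.0 with the lowest intron of each gene, and was 1.56 at 60 min. That of E2 genes (0.57) became -0.59 with the lowest intron and 0.25 by summed reads, and was 1.78 at 60 min. That of E3 genes (0.53) became 0.0 by summed reads, -0.38 with the lowest intron and -0.040 with at least 50 reads. Over all kept introns the median (0.66) became 0.57 by summed reads, -0.060 with the lowest intron and 1.19 with at least 50 reads. The lowest intron of each gene lowers a median by construction, and the cause of the other changes was not tested. Relative to the median gene in place of all junction reads, junction reads were 2-fold lower at 30 min in 2 genes and 2-fold higher at 60 min in 1.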
